A study of Rattus norvegicus with 4 samples.

Results

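Fat cells that build fatty acids from sugar need reducing power in the form of NADPH, and the 5 genes described here encode enzymes that supply it or belong to the pathway that does. They are Pgd (6-phosphogluconate dehydrogenase), Tkt (transketolase), Taldo1 (transaldolase), Me1 (cytosolic malic enzyme) and Idh1 (cytosolic and peroxisomal NADP-dependent isocitrate dehydrogenase). They were taken by name. A probe set, the group of array probes designed for 1 transcript, was counted when the platform's annotation gave it a single symbol and that symbol was 1 of the 5. This gave 7 probe sets of the 15866 on the array and 5 of the 10411 genes with such a probe set. Tkt and Me1 have 2 probe sets each, and the one with the higher mean signal over the 4 arrays stands for the gene. Of the 7 probe sets, 6 were bright enough to test. The remaining one, the second probe set of Tkt, gave signals of 1.9 to 2.7 on all arrays, under the floor of 20.8 used here for dim values.

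The RNA came from visceral fat of male Wistar rats, each 130 days of age, measured on 4 single-colour arrays, 2 labelled control and 2 labelled obese. The labels give no diet, genotype or treatment for either group. They do not say whether an array holds 1 animal or a pool, so the p-values below measure only the spread between these arrays, which may be technical. Median signals were 82.2 to 83.1 on 3 arrays and 75 on obese replicate 2, and the log2 signals of pairs of arrays correlated with r between 0.961 and 0.976 across probe sets. Fat cell markers were present: all 6 of 8 chosen markers that had a named probe set lay above the floor, with Fabp4, a fatty acid binding protein, at 2853.1 to 3679.8.

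In the pentose phosphate pathway, glucose 6-phosphate is oxidised in an upper, irreversible branch that yields NADPH and a pentose phosphate, and a lower, reversible branch turns pentose phosphates back into sugars of glycolysis. Pgd is the enzyme of the upper branch that makes ribulose 5-phosphate, while Tkt and Taldo1 carry out the exchanges of the lower branch. Malic enzyme makes NADPH as it turns malate into pyruvate, at the end of the shuttle that carries acetyl units out of mitochondria as citrate. In fat tissue the dehydrogenases of the upper branch and malic enzyme are known to be induced together with fatty acid synthase when carbohydrate is plentiful.

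RNA of other tissues differed between the arrays and is given here because it touches the results that follow. Obese replicate 1 carried pancreatic transcripts, with the amylase Amy2a3 at 531.8 against 1 to 3.3 on the other arrays and the trypsinogen Prss1 at 361.5 against 16.4 to 27.4. Ctrb1, of the same list, was at 118.9 against 10.7 to 17.6. Control replicate 2 was highest for the other pancreatic genes Cpa1, a carboxypeptidase (622.5, against 197 on obese replicate 1), and Cela1, an elastase (207.8 against 166.2). The summed signal of 4 measured mesothelial and epithelial markers was 745.3 and 884.7 on the control arrays, 1441.5 on obese replicate 1 and 348.5 on obese replicate 2. The summed signal of 8 macrophage markers was 8485.7 and 10272 on the control arrays and 6138.1 and 6212.5 on the obese arrays, and 7 of the 8 were lower on both obese arrays, as were 24.4% of all tested probe sets. The sum of 8 genes listed as lymphocyte markers, not all of them confined to these cells, was 1421.6 and 1209.2 against 731.2 and 589.7. The brightest of them were Cd4 (569.1 and 540.8 against 303.2 and 270.1), Ptprc and Cd37. These brightest genes were lower on both obese arrays, as were 24.4% of all tested probe sets. The dim Cd3d, Cd3e and Cd2 overlapped between the groups. Cd8a (53.2 and 21.5 against 18.2 and 13.7) and Cd79b (99.3 and 17.5 against 13.8 and 8.7) were lower on both obese arrays. They were dim as well, with obese signals under the floor, and Cd79b was not tested. The sum of the 6 fat cell markers was 10537.3 and 10571.8 on the control arrays, 10159.7 on obese replicate 1 and 12415.9 on obese replicate 2, so that the last array was the highest. The part of these transcripts in the results was not tested. In bulk tissue, fewer cells of a type and less RNA per cell cannot be told apart.

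The comparison asked how the genes of NADPH supply differed between obese and control visceral fat. Me1 and Pgd had higher signals on both obese arrays than on either control array, whereas Tkt, Taldo1 and Idh1 overlapped between the groups. The log2 differences, obese minus control, ran from 0.08 for Idh1 to 0.57 for Me1, and none of the 5 passed the test. Their median was 0.22, beside -0.04 over all 12929 tested probe sets. In limma's moderated test with Benjamini-Hochberg adjustment over all of these, 0% of probe sets had an adjusted p under 0.05, and 1073 had an unadjusted p under 0.05, of which 397 were higher in obese tissue. Of the 5 genes, 2 were higher on both obese arrays and 0 were lower on both. Among all tested probe sets, 15.6% were higher on both obese arrays and 24.4% lower on both. With median centring of the arrays these shares were 22.1% and 16.6%, and 2 of the 5 genes were higher on both obese arrays under each of the 4 scalings run. The smallest two-sided p of an exact permutation test is 0.333 with 2 arrays per group, and such a test was not used.

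**Figure D1:**
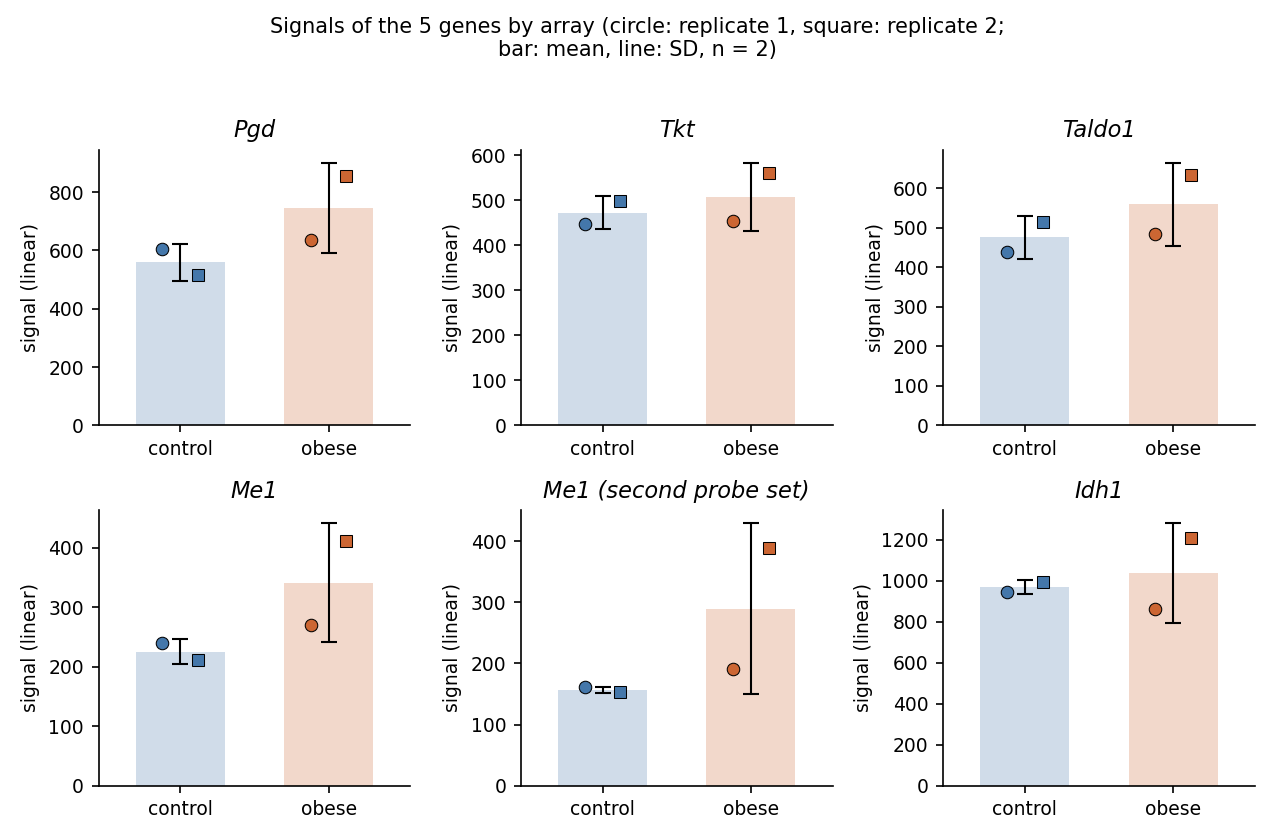
Signal on a linear scale of each tested probe set of the 5 genes, by group. Circles are replicate 1, squares replicate 2, bars the group mean and lines the SD (n = 2). The square of obese replicate 2 is the highest point in each panel, and only for Pgd and Me1 does the circle of obese replicate 1 also lie above both control points.

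Pgd, the NADPH-producing dehydrogenase of the upper branch, had signals of 603.4 and 514.1 on the control arrays and 636.8 and 854.6 on the obese arrays. The groups did not overlap, but obese replicate 1 lay close to control replicate 1. The group means were 558.8 ± 63.1 (SD, n = 2) and 745.7 ± 154. The log2 difference was 0.41 ± 0.18 (SE), with a 95% interval of -0.05 to 0.86 (limma adjusted p = 0.625, unadjusted p = 0.0703). Without obese replicate 2 it was 0.19, and without obese replicate 1 it was 0.62.

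In the lower branch both genes overlapped between the groups. Transketolase, Tkt, a thiamine-dependent enzyme that moves 2-carbon units between sugar phosphates, had signals of 446.8 and 499 on the control arrays and 453.7 and 561 on the obese arrays. Obese replicate 1 lay between the control arrays. The log2 difference was 0.10 ± 0.15 with an interval of -0.28 to 0.47 (limma adjusted p = 0.893), and it was -0.06 without obese replicate 2, 0.25 without obese replicate 1, 0.02 without control replicate 1 and 0.18 without control replicate 2.

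Transaldolase, Taldo1, moves 3-carbon units between sugar phosphates. Its signals were 438.3 and 514.8 on the control arrays and 485.3 and 633.5 on the obese arrays, so obese replicate 1 again lay between the control arrays. The log2 difference was 0.22 ± 0.18 with an interval of -0.21 to 0.66 (limma adjusted p = 0.772). It was 0.03 without obese replicate 2, 0.42 without obese replicate 1, 0.11 without control replicate 1 and 0.34 without control replicate 2.

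Me1 had the largest difference of the 5 genes and was measured by 2 probe sets. The brighter one gave 240.4 and 210.8 on the control arrays and 270.6 and 411.9 on the obese arrays, means of 225.6 ± 20.9 and 341.3 ± 99.9 (SD, n = 2). The second gave 160.7 and 153.8 against 191.1 and 388.5. Both probe sets were higher on both obese arrays, and in both the gap between the obese arrays was wider than that between the control arrays. The log2 differences were 0.57 ± 0.22 (interval 0.02 to 1.12, limma adjusted p = 0.586, unadjusted p = 0.0440) and 0.79 ± 0.33 (interval -0.01 to 1.60, limma adjusted p = 0.610). Of all tested probe sets, 97.7% and 99% had a lower difference. Without obese replicate 2 the probe sets gave 0.27 and 0.28, and without obese replicate 1 they gave 0.87 and 1.31.

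Idh1, which oxidises isocitrate to 2-oxoglutarate outside mitochondria, had signals of 945.4 and 995.2 on the control arrays and 865 and 1209.6 on the obese arrays. Obese replicate 1 was the lowest of the 4 arrays and obese replicate 2 the highest. The log2 difference was 0.08 ± 0.19 with an interval of -0.39 to 0.54 (limma adjusted p = 0.933). Its sign turned with quantile normalization (-0.02) and without obese replicate 2 (-0.17). It was 0.32 without obese replicate 1, 0.04 without control replicate 1 and 0.11 without control replicate 2.

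The obese arrays differed from each other more than the control arrays did for each of the 5 genes. Across all tested probe sets the obese pair was also the less alike, with r = 0.966 beside 0.976 for the control pair. The share of tested probe sets with a wider obese gap was not counted. All 5 genes had their highest signal on obese replicate 2, as did 22.5% of all tested probe sets. Of all tested probe sets, 42.5% were higher on that array than on obese replicate 1. Against the mean of the control arrays, the median of the 5 genes was 0.42 on obese replicate 2 and 0.03 on obese replicate 1, in log2 units. Over all tested probe sets the same medians were -0.08 and -0.01. Me1 and Pgd were also alike in the control group, being higher on control replicate 1 than on control replicate 2, while Tkt, Taldo1 and Idh1 were lower on control replicate 1. Leaving out obese replicate 2 lowered the median difference of the 5 genes from 0.22 to 0.03, and leaving out obese replicate 1 raised it to 0.42. Leaving out control replicate 1 gave 0.11, and leaving out control replicate 2 gave 0.29.

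**Figure D2:**
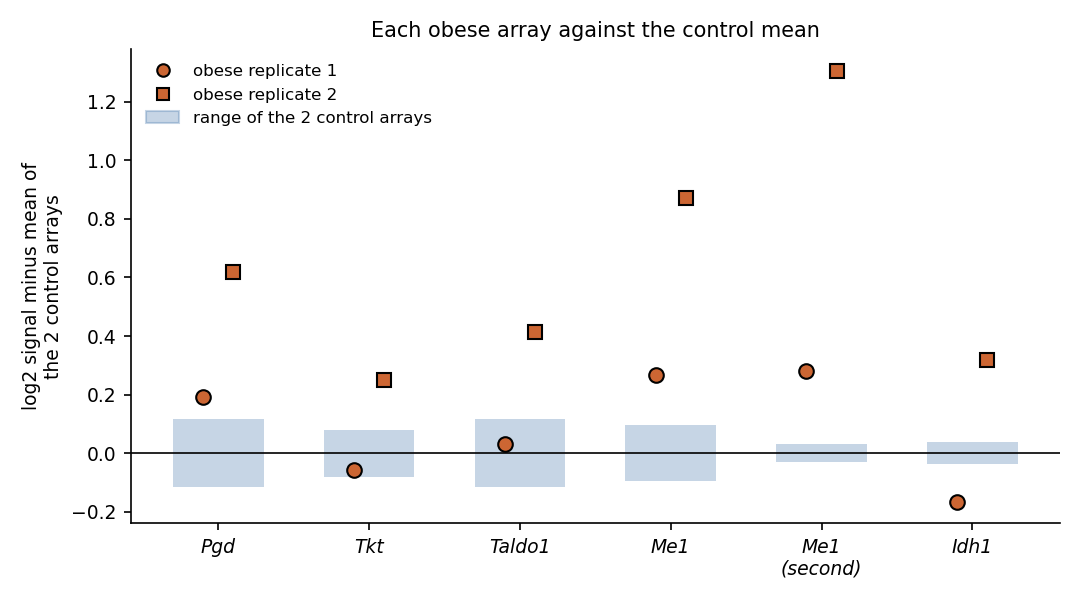
Log2 signal of each obese array minus the mean of the control arrays for the 6 tested probe sets (circle: obese replicate 1, square: obese replicate 2). The shaded bars span the 2 control arrays. Each square lies above its bar, from 0.25 for Tkt to 1.31 for the second probe set of Me1, and the circles lie above it for Pgd and Me1, inside it for Tkt and Taldo1, and below it for Idh1.

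The share of fat cells in a sample bears on such levels, so each gene was also set against fat cell markers within each array, which removes the scaling between arrays. Of the 5 markers chosen for this, Plin1 (perilipin, the lipid droplet coat), Fabp4 and Lipe (hormone-sensitive lipase) had a named probe set, and the other two were not analysed here. These 3 had the largest differences of the 6 fat cell markers measured. The mean log2 signal of the 3 was 10.20 and 10.07 on the control arrays and 10.27 and 10.45 on the obese arrays, a difference of 0.22. Relative to that mean, Me1 differed by 0.35 and Pgd by 0.18, and their groups still did not overlap. For Pgd the gap was narrow, with -0.964 on control replicate 1 and -0.954 on obese replicate 1. Relative to the same mean, Taldo1 differed by 0.0012, Tkt by -0.13 and Idh1 by -0.15, all with overlapping groups. Against all 6 measured markers, whose mean differed by 0.12 with overlapping groups, the values were 0.45 for Me1, 0.29 for Pgd, 0.10 for Taldo1, -0.02 for Tkt and -0.04 for Idh1, an alternative added after seeing the data. The groups of Me1 and Pgd did not overlap there either. With the 3 markers, and without obese replicate 2 the values were 0.13 for Me1, 0.06 for Pgd, -0.10 for Taldo1, -0.19 for Tkt and -0.30 for Idh1. Without obese replicate 1 they were 0.56, 0.30, 0.10, -0.06 and 0.01. The values for Tkt and Taldo1 also turned sign or moved with the control arrays, to 0.02 and 0.18 without control replicate 2 and -0.27 and -0.18 without control replicate 1, and that for Idh1 was -0.05 and -0.25. No test was run on these ratios.

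The promoters of the 5 genes were also searched for short sequence patterns, whichever of the genes differed. The windows run from 250 bases before to 50 bases after a RefSeq start site on the rat assembly GRCr8, and all 5 genes matched one by symbol. Both strands were searched for the E-box CACGTG, the sterol response pattern TCACNCCAC, the antioxidant response pattern TGACNNNGC, the CCAAT box and the GC box GGGCGG. TGACNNNGC was found in Me1 and Idh1, and in 12.1% of all 33469 windows. These promoters are shown because they hold a match to a response pattern. Me1 had the largest and Idh1 the smallest difference of the 5 genes. The bases before the start site are printed, with the match in capitals. That of Me1 is chr8:96540245-96540494 on the minus strand, with the match beginning 167 bases upstream. That of Idh1 is chr9:74049475-74049724 on the minus strand, with the match beginning 83 bases upstream. The start site used for Idh1 lies 7968 bases inside the annotated gene, which extends from 74027887 to 74057442, and that of Tkt lies 851 bases inside its gene.
Me1: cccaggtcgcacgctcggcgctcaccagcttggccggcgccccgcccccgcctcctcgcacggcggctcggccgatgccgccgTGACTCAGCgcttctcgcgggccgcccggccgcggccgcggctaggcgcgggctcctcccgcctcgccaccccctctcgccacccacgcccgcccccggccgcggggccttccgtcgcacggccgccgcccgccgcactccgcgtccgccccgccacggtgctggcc
Idh1: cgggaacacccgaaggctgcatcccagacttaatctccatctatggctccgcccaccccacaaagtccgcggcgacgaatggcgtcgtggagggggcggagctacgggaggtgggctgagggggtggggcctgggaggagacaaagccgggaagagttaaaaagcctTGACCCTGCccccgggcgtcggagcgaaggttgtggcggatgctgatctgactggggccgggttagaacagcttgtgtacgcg

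The match in Me1, TGACTCAGC, also holds TGACTCA, the pattern bound by AP-1 factors. The match in Idh1 reads TGACCCTGC. None of the 5 windows held CACGTG or TCACNCCAC, which were found in 6.42% and 1.12% of all windows. CCAAT was found in Pgd and Taldo1 and in 37.5% of all windows. GGGCGG was found in 4 of the 5 windows, with 5 matches in Me1, 2 in Idh1 and 1 each in Pgd and Taldo1. It was found in 33.1% of all windows and in 41.8% of those of protein-coding genes, to which the 5 genes belong. The upstream part of the Me1 window was 83.2% G and C, against a median of 51.2% over all windows. A match of letters is a description of the window and shows no binding.

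The remaining genes of the pentose phosphate pathway showed no common direction. Of 14 listed besides Pgd, Tkt and Taldo1, 10 had a named probe set and were tested, and 0 passed in either direction. Their median log2 difference was -0.01, with 5 above and 5 below 0, and 3 were higher and 0 lower on both obese arrays, beside 15.6% and 24.4% of all tested probe sets. The 3 were Prps2 (0.43 ± 0.21, other probe sets 0.15 and 0.31), Rbks (0.37 ± 0.18) and Prps1 (0.32 ± 0.16, other probe set 0.20). As for Pgd, their highest signal was on obese replicate 2. H6pd, the hexose 6-phosphate dehydrogenase of the endoplasmic reticulum, differed by 0.34 ± 0.26 (0.11 and 0.12 without control replicate 2 and obese replicate 1, 0.57 and 0.56 without control replicate 1 and obese replicate 2). Pgls, the lactonase that acts just before Pgd, differed by 0.01 ± 0.18. Rpia and Rpe, the isomerase and epimerase that link the branches, differed by -0.05 ± 0.14 and -0.07 ± 0.16, and the second probe set of Rpia gave 0.44. The signs of Pgls, Rpia and Rpe turned under some settings. Prpsap1, a regulatory partner of phosphoribosyl pyrophosphate synthetase, had the lowest t of the list at -0.21 ± 0.18, and -0.09 without obese replicate 2, -0.33 without obese replicate 1 and -0.12 without control replicate 2.

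Other NADPH sources showed both directions. Besides Me1 and Idh1, 12 genes were listed, 9 had a named probe set and 8 were tested, with 0 passing in either direction and a median of 0.03. Of the 8, 3 were higher and 2 lower on both obese arrays, and the share lower is near the 24.4% of all tested probe sets (15.6% higher). The 2 lower ones, Idh2 and Nnt, act in mitochondria, as does Me3, which was among the 3 higher. Idh2, the mitochondrial counterpart of Idh1, had signals of 391.8 and 465.7 on the control arrays and 341.4 and 338.9 on the obese arrays, a log2 difference of -0.33 ± 0.14 (limma adjusted p = 0.615), and -0.20 without control replicate 2. Nnt, the transhydrogenase that makes NADPH from NADH across the inner membrane, had signals of 333.9 and 413 against 277.7 and 230.3, a difference of -0.55 ± 0.17 (limma adjusted p = 0.522). Both were lower on both obese arrays, the reverse of Me1. The mitochondrial malic enzyme Me3 differed by 0.10 ± 0.18, and by 0.06 without obese replicate 2. It gave 0.18 to 0.20 under the other scalings.

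Since Idh1 and Idh2 catalyse the same reaction in different compartments, their ratio was formed within each array. The log2 signal of Idh1 minus that of Idh2 was 1.27 and 1.10 on the control arrays and 1.34 and 1.84 on the obese arrays. The value itself compares different probes and was not read, only its change between arrays. The groups did not overlap, and the difference was 0.41, or 0.16 without obese replicate 2 and 0.65 without obese replicate 1. Idh1 itself overlapped between the groups. No test was run on this ratio.

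**Figure D3:**
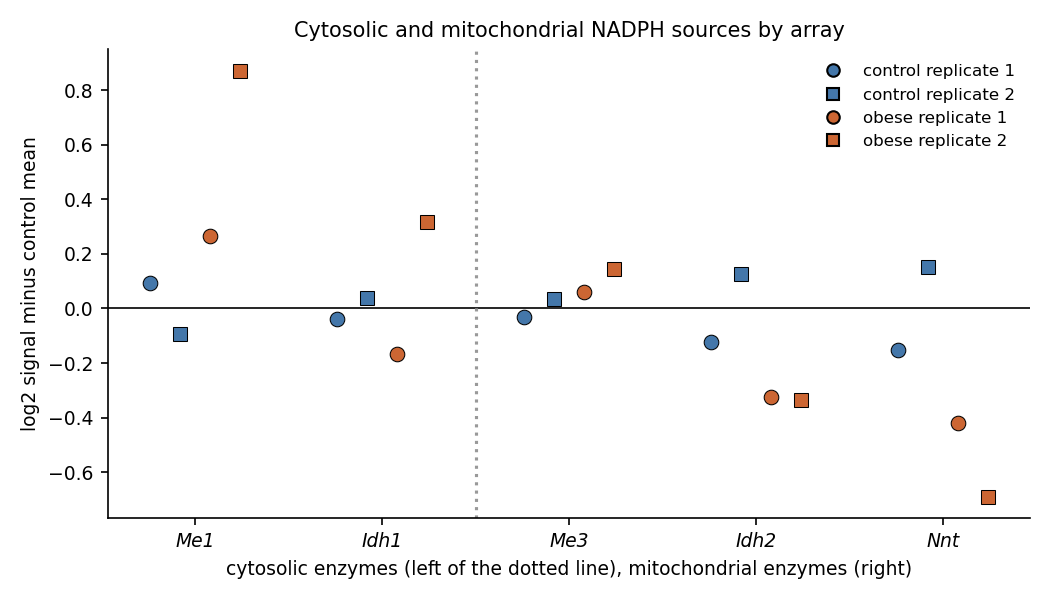
Log2 signal on each array minus the control mean, for cytosolic Me1 and Idh1 (Idh1 also acts in peroxisomes) and for mitochondrial Me3, Idh2 and Nnt. Blue is control, orange obese, circles replicate 1 and squares replicate 2. Both orange points lie above both blue points for Me1 and Me3 and below both for Idh2 and Nnt, and they straddle the blue points for Idh1.

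Among the further genes of this list, Mthfd1, an enzyme of folate metabolism, differed by 0.17 ± 0.14, with signals of 141.4 and 149.5 against 161.6 and 165.5. Nadk, which makes NADP from NAD, differed by -0.05 ± 0.18, and its sign turned under 3 settings. Aldh1l1, a folate enzyme that yields NADPH and was named after its values were seen, gave 120.9 and 158.6 on the control arrays and 177.7 and 362.2 on the obese arrays. Its difference was 0.87 ± 0.35 (limma adjusted p = 0.592), with 0.36 without obese replicate 2 and 1.39 without obese replicate 1. As for Me1, the larger part of it lay on obese replicate 2.

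The citrate and malate shuttle, which delivers acetyl units for lipogenesis and malate for Me1, had 9 of its 13 tested genes higher on both obese arrays and 1 lower, beside 15.6% and 24.4% of all tested probe sets (22.1% and 16.6% with median centring), with a median of 0.21 and 0 passing in either direction. Mdh2, mitochondrial malate dehydrogenase, gave 416.8 and 360.1 against 522.1 and 648.8, a difference of 0.59 ± 0.16 (limma adjusted p = 0.490). Pc, pyruvate carboxylase, gave 291.5 and 261.8 against 359.1 and 383, a difference of 0.42 ± 0.13. On these genes the obese arrays lay clear of the control arrays. Acly, ATP citrate lyase, differed by 0.21 ± 0.13 (0.11 without control replicate 2). Slc25a1, the citrate carrier, differed by 0.40 ± 0.18 (0.18 without obese replicate 2, 0.62 without obese replicate 1). The cytosolic malate dehydrogenase Mdh1, whose product is the substrate of Me1, differed by 0.28 ± 0.19 (0.05 and 0.51 in the same order). Its second probe set gave 0.506. Got1, cytosolic aspartate aminotransferase, had the lowest t at -0.32 ± 0.18. On obese replicate 1 alone the list's median was 0.18 above the control mean and on obese replicate 2 it was 0.20.

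The enzymes that spend NADPH were led by fatty acid synthase, Fasn, with signals of 578.2 and 485.5 on the control arrays and 1137.6 and 1445.3 on the obese arrays. Its log2 difference was 1.28 ± 0.17 (limma adjusted p = 0.273) and did not pass. It was 1.10 without obese replicate 2, where Me1 gave 0.27 and Pgd 0.19. The second probe set of Fasn gave 1.64. Of 30 genes listed, 20 were tested, 0 passed in either direction and the median was 0.21. On both obese arrays 6 were higher and 3 lower, beside 15.6% and 24.4% of all tested probe sets. The list is broader than enzymes that spend NADPH. It holds Cyb5r3, an NADH-dependent reductase counted among the 6, and the catalase Cat. Por, the reductase that serves cytochromes P450, differed by 0.42 ± 0.14, and by 0.37 with its second probe set. Gsr, glutathione reductase, differed by 0.40 ± 0.18, with signals of 66.3 and 59.9 against 80.6 and 86.1. Txnrd1, thioredoxin reductase, differed by -0.09 ± 0.13, by -0.01 with median centring and by -0.18 without obese replicate 1. The signal of this probe set was 356.9 on both control arrays and on obese replicate 1, so its difference lay on obese replicate 2 alone, at 314.1. The second probe set of Txnrd1 gave -0.002. Cyba, the p22phox subunit of the phagocyte NADPH oxidase, had the lowest t, with a difference of -0.60 ± 0.20 and of -0.39 without control replicate 2. Its second probe set gave -0.18. Macrophage markers were lower on the same arrays, and their part in the difference of Cyba was not tested.

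**Figure D4:**
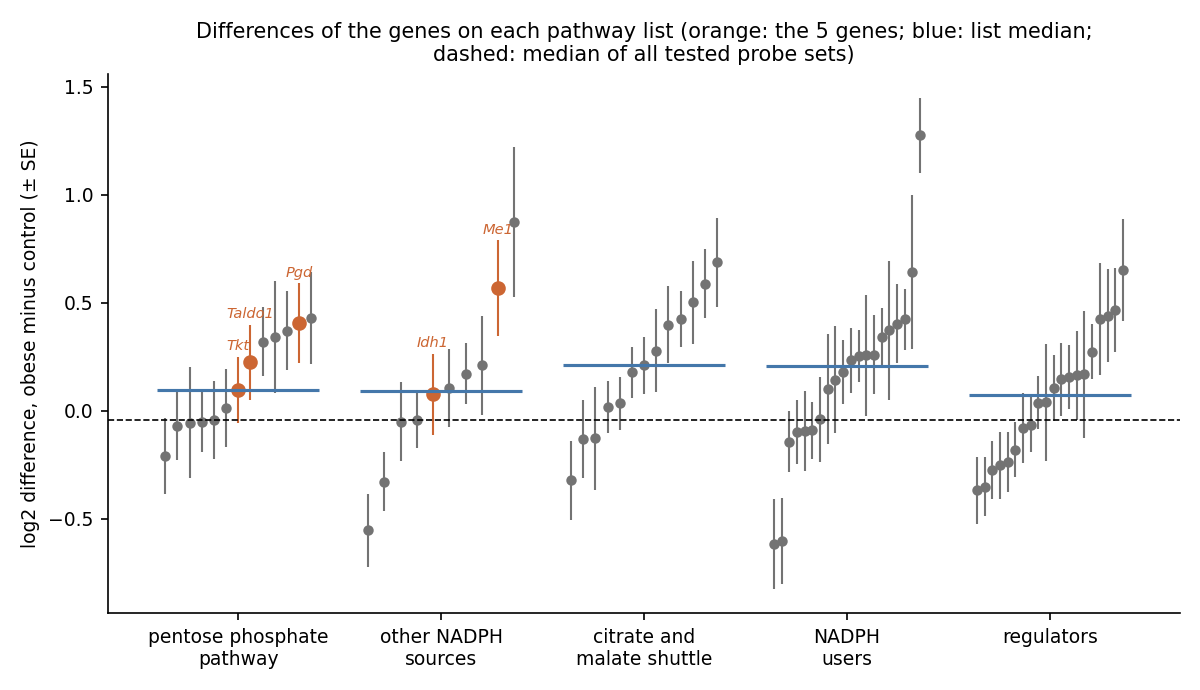
Log2 difference, obese minus control, of every tested gene on 5 lists around NADPH (points, with the SE of the limma fit as lines). The 5 genes are in orange, blue bars give each list's median (0.10, 0.09, 0.21, 0.21 and 0.07 from left to right) and the dashed line the median of all tested probe sets (-0.04). Me1 and Pgd lie near the top of their lists, and the highest point, at 1.28, is Fasn.

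Known regulators of these genes were measured as well, on a list that also held the target gene Nqo1. Of 21 listed, 20 were tested, 0 passed in either direction, 5 were higher and 6 lower on both obese arrays, not far from the 15.6% and 24.4% of all tested probe sets, and the median was 0.07. Srebf1, the factor that drives lipogenic genes, gave 597.4 and 532.5 against 682.1 and 680.8, a difference of 0.27 ± 0.13, and 0.13 with its second probe set. Srebf2, which drives cholesterol genes, differed by -0.35 ± 0.14. Insig1, a target and brake of both, gave the largest t of the list (0.65 ± 0.24), and 0.32 without obese replicate 2 and 0.99 without obese replicate 1. Mlxipl, the carbohydrate response factor ChREBP, differed by 0.17 ± 0.29, with dim signals of 63.2 and 40.2 against 48.7 and 65.9. Nfe2l2, the antioxidant response factor Nrf2, differed by -0.06 ± 0.13, and the signs of Mlxipl and Nfe2l2 turned under some settings. Nqo1, a quinone reductase and a known target of Nrf2, was higher on both obese arrays, with signals of 120.9 and 150.3 against 164.2 and 211.1, a difference of 0.47 ± 0.20 (0.28 without obese replicate 2, 0.31 without control replicate 1). None of these genes passed in limma (smallest adjusted p of the list 0.568).

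Likeness to the 5 genes was measured as the distance, over the 4 arrays, between a gene's log2 signals centred on their own mean and the average centred profile of the 5. That profile was -0.14 and -0.13 on the control arrays, -0.08 on obese replicate 1 and 0.36 on obese replicate 2. Of 9006 other genes compared, the nearest were Cox4i1 and Ndufa5, subunits of the respiratory chain, and Slc28a3, Mmgt1, Enpp5 and Rras, at distances of 0.020 to 0.037. Cox4i1 gave 1897.3 and 1945.2 on the control arrays and 1993.3 and 2716.2 on the obese arrays. Slc28a3 was dim, with control signals of 18.6 and 17.8 under the floor. The 5 genes themselves lay from 0.17 (Taldo1) to 0.35 (Me1) from their own average. The nearest genes were picked from 9006 for their small distance, so these distances cannot be set against theirs. With 4 arrays, likeness of this kind is a description.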

How the data were processed

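The authors' deposited values are linear intensities, 1 for each probe set on each array. They had been scaled, from the values: means after trimming 2% at each end were 150.026 to 150.03. The scanner, software and normalization method were not given in the sources used here. Symbols came from the platform's annotation, where 12783 probe sets had 1 symbol, 312 several and 2771 none. The 57 control probe sets were left out. Values were raised to a floor of 20.8 (20th percentile), log2 was taken, and testing required signals above the floor on at least 2 arrays.

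Obese minus control was fitted over all tested probe sets with limma 3.58.1 in R 4.3.3 (lmFit, eBayes with trend, two-sided, Benjamini-Hochberg, threshold 0.05), and errors are moderated standard errors with 5.83 degrees of freedom. The code was tested on simulated data. Separated means that both obese arrays lay above, or below, both control arrays. The genes and lists were chosen with earlier results of these data known. Named were the 5 genes, a preset part of each list, its highest and lowest t and the 6 nearest profiles. The highest t was that of Pgd and Me1 in the first pair of lists. Aldh1l1, Prps1, Prps2 and Rbks were named after their values were seen. Promoters shown were those with a response pattern. Genes with no named probe set were not analysed here. Alternatives covered scaling, floor, pseudocount, filter, variance model, replicate block, probe sets, marker choice and each array left out.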

Additional observations from a re-analysis of the deposited data

How the results depend on the processing

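The differences of Pgd, Taldo1 and Me1 kept their sign under all 16 alternatives. Floor percentile, filter, variance model and replicate block could not change the differences of these bright probe sets. The mean over probe sets could change only that of Me1. Only the scalings, the pseudocount and the arrays left out could therefore turn the sign of Pgd or Taldo1. No difference of the 5 genes passed under any alternative that kept all 4 arrays. With each array left out in turn, Tkt ranged from -0.058 to 0.249 and Idh1 from -0.165 to 0.319, and Idh1 was -0.019 with quantile normalization. The number of the 5 genes higher on every obese array left ranged from 2 to 5, since a single array separates more easily. It was 5 without obese replicate 1 and 4 without control replicate 2, beside 28.7% and 27% of all tested probe sets. It was 2 without control replicate 1 and 2 without obese replicate 2, beside 28.4% and 32.1%. The number of probe sets past the threshold was 0 in the chosen fit, 1 with median centring, 3 with a pseudocount of 16, 6 without a filter on dim probe sets and 1 without a trend. None of these belongs to the 5 genes. Among other genes, median centring gave 0.027 for Rpia, 0.028 for Nadk, 0.0090 for Rpe and 0.014 for Nfe2l2, and Rpia was 0.19 with the mean over its probe sets. With an array left out, Pgls ranged from -0.15 to 0.18, Rpia from -0.163 to 0.058, Nadk from -0.25 to 0.15, Mlxipl from -0.16 to 0.49 and Nfe2l2 from -0.144 to 0.014. The causes were not tested. With 1 array of a group left, its spread was taken from the other group.

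Same-numbered arrays deviated together with r = 0.0482 across probe sets, which gives no sign of pairing. With the replicate block, Me1 had an adjusted p of 0.582 and a difference of 0.57 (limma), and the number of probe sets past the threshold was 0, so no call changed. No detection calls were used, and the 2 arrays per group limit the precision of every value.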
